A study of Mus musculus with 24 samples.

Results

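The genes described here encode extracellular matrix proteins and the enzymes that cut, crosslink or protect them. They were chosen by symbol from a deposited table of peaks of RNA recovered by immunoprecipitation of STAU2, which binds double-stranded RNA and carries mRNAs within cells. The choice took collagens, laminins, fibrillins, fibulins, thrombospondins, spondins, lysyl oxidases, glypicans, syndecans, serpins, the TIMP inhibitors and the ADAM, ADAMTS and MMP proteases with a peak called in an exon or untranslated region. Col1a1, Col1a2, Col3a1 and Col4a1 were left out. This gave 37 of the 7702 genes of the table, with 62 of its 13749 peak rows of these kinds. No laminin, spondin or transmembrane collagen was among them. All 37 genes passed the filter on low counts, which left 7651 genes for testing.

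The 24 samples are brain cortex of C57BL/6 mouse embryos, with 3 STAU2 RNA immunoprecipitations (RIP) and 3 inputs at each of 4 ages: E11.5 and, at later days of embryonic development, E13.5, then E15.5 and E17.5. No allele, transgene or treatment is named in the labels. The 12 count columns carry stage and replicate names that fit both a RIP and its input, and they were read as the RIP libraries because the table lists peaks. The inputs were not analysed here, so a change between stages mixes the amount of an RNA with its recovery by the antibody.

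The extracellular matrix is the network of secreted proteins and proteoglycans that surrounds cells. In the embryonic brain much of it is laid down by the meninges, by blood vessels and in the basement membrane on which the endfeet of radial glia rest, while neurons and glia make a matrix rich in proteoglycans. Membrane-bound and secreted proteases of the MMP and ADAM families remodel it and shed the outer parts of cell surface proteins, and TIMP proteins and serpins restrain proteases. STAU2 binds double-stranded stretches of mRNA and is known in neurons and in dividing cortical progenitors for the placement of mRNAs within the cell.

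Counts over exon and untranslated region peaks came to 1954160 to 4693793 per library, with the lowest totals at E11.5. At E11.5 such peaks held 36.0% to 43.7% of the counts in gene peaks, against 65.9% to 77.4% at the later stages. The member peaks held 1589 to 7054 counts per library, or 0.0665% to 0.165% of the exon and untranslated region counts. Single members had between 0 and 1499 counts in a library, and 10 of the 444 member values were 0, in 6 genes. A count of 0 allows up to 3 counts, or 0.561 to 1.85 counts per 1000000 (CPM) depending on the library, and this limit covers counting error only. No pair of libraries held identical counts. Cortical tissue was measured in bulk, so fewer cells of a type and less RNA per cell cannot be told apart.

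Levels are given as CPM, scaled by the trimmed mean of M-values (TMM), in replicates 1, 2 and 3 of a stage in that order. CPM are not divided by peak length and were not compared between genes. Changes are log2 fold changes ± standard error with 3 libraries per stage, and a gene is said to have risen or fallen where the adjusted p of edgeR's quasi-likelihood test (Benjamini-Hochberg, over all 7651 genes) was under 0.05. The labels do not say that replicates came from separate embryos or pools, so p-values measure the spread between these libraries, which may be technical.

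**Figure D1:**
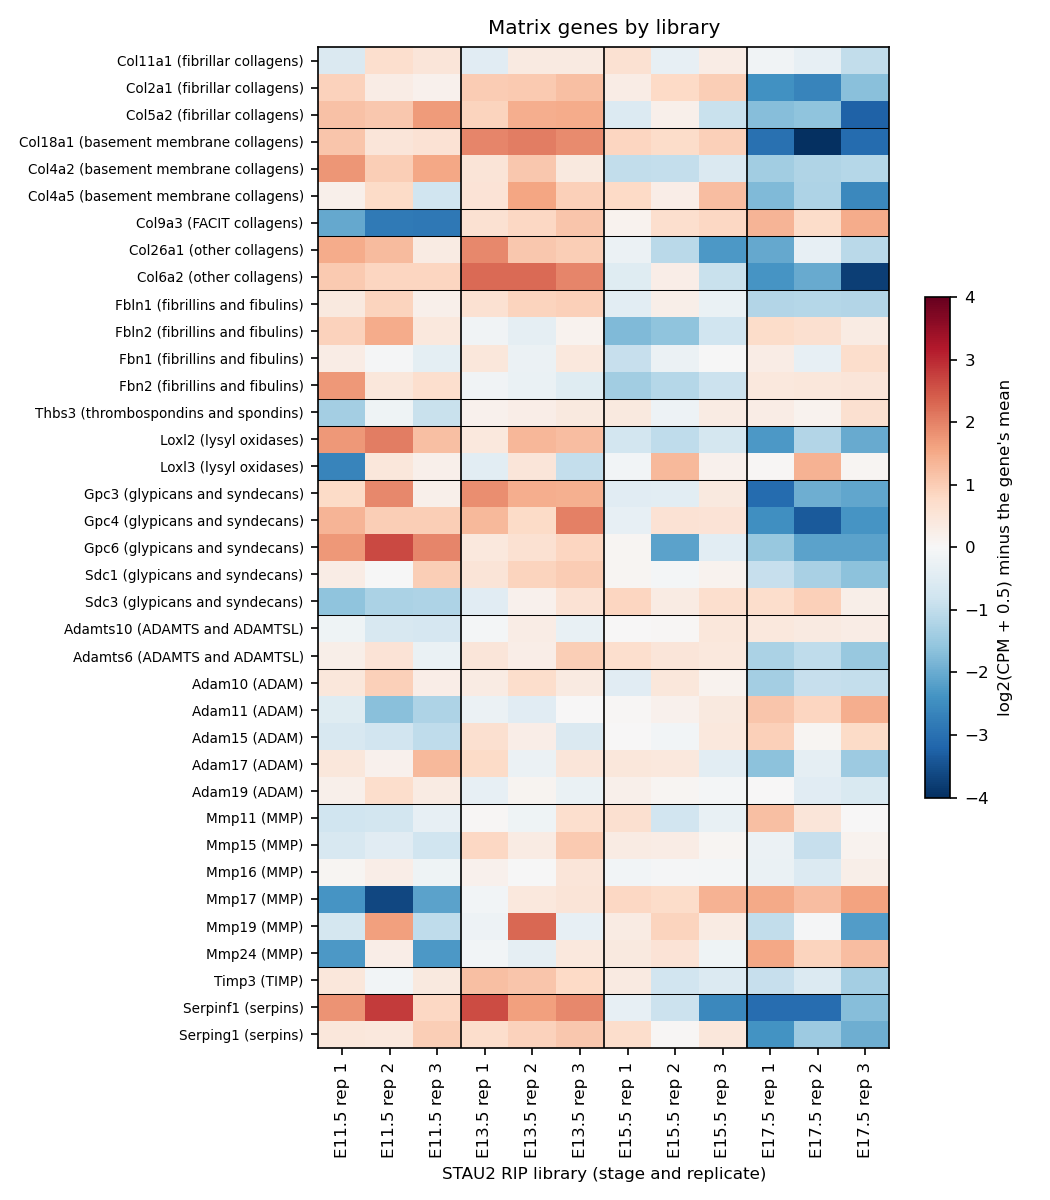
Level of each of the 37 matrix genes (rows, grouped by role) in each of the 12 STAU2 RIP libraries (columns, by stage and replicate), as log2(CPM + 0.5) minus the mean of that gene over the 12 libraries. Most collagens, glypicans and serpins are blue at E17.5, and Mmp17, Adam11, Sdc3 and Col9a3 are blue at E11.5 and red at E17.5.

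Between E11.5 and E17.5 20 of the 37 genes fell and 9 rose. Among all genes tested, 28.8% fell and 29.8% rose in this comparison. The median log2 fold change was -1.49 over the members and 0.04 over all genes. With totals over every peak as the scale, the split was 12 higher and 13 lower, and the median of all genes stood at 1.00. The shares of all genes called with that scale were not computed. All 20 genes that fell had their E17.5 libraries below their E11.5 libraries, and all 9 that rose had them above. These genes were called on the same values, so this separation adds no support to the calls. The share of all genes so separated was not computed. Of the 20 that fell, 7 had their highest stage mean at E11.5 and 13 at E13.5, while all 9 that rose had theirs at E17.5. No member had its highest mean at E15.5. A gene that fell between the end stages cannot be highest at E17.5, nor one that rose at E11.5. The shares of all genes by highest stage were not computed, so these counts are no result about the members. The test over the 4 stages together called 28 members, or 75.7% of the 37, against 54.9% of all genes. Adam19, Adamts10, Mmp11 and Thbs3, which were called between the end stages, did not pass this test.

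The steps between neighbouring stages share libraries with each other and with the end-stage comparison, so their values are given side by side. From E11.5 to E13.5 7 members rose and 3 fell, against 14% and 11.3% of all genes, with a member median of 0.36 and a median over all genes of 0.08. This step depended on the scale. With totals over exon and untranslated region peaks 13 rose and 1 fell, and the median of all genes was 0.44. With totals over every peak 28 rose and 0 fell, and that median was 1.28. The shares of all genes called with these totals were not computed, so these counts are no result about the members. From E13.5 to E15.5 0 members rose and 4 fell, against 0.196% and 0.549% of all genes, with medians of -0.48 and -0.01. An unadjusted p under 0.05 was reached by 16 members in this step, 19 members had all E15.5 libraries below all E13.5 libraries, and DESeq2 called 9 lower. The shares of all genes that met these 3 marks were not computed, so these counts are no result about the members. The calls of this step depend on single libraries: between 0 and 6 members passed when 1 library was left out, and without the first E15.5 library none of the calls was kept. In the last step, from E15.5 to E17.5, 3 rose and 13 fell, against 9.74% and 12.2% of all genes, with medians of -0.74 and -0.02. The 13 genes that fell in this last step all belong to the 20 that fell between the end stages.

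**Figure D2:**
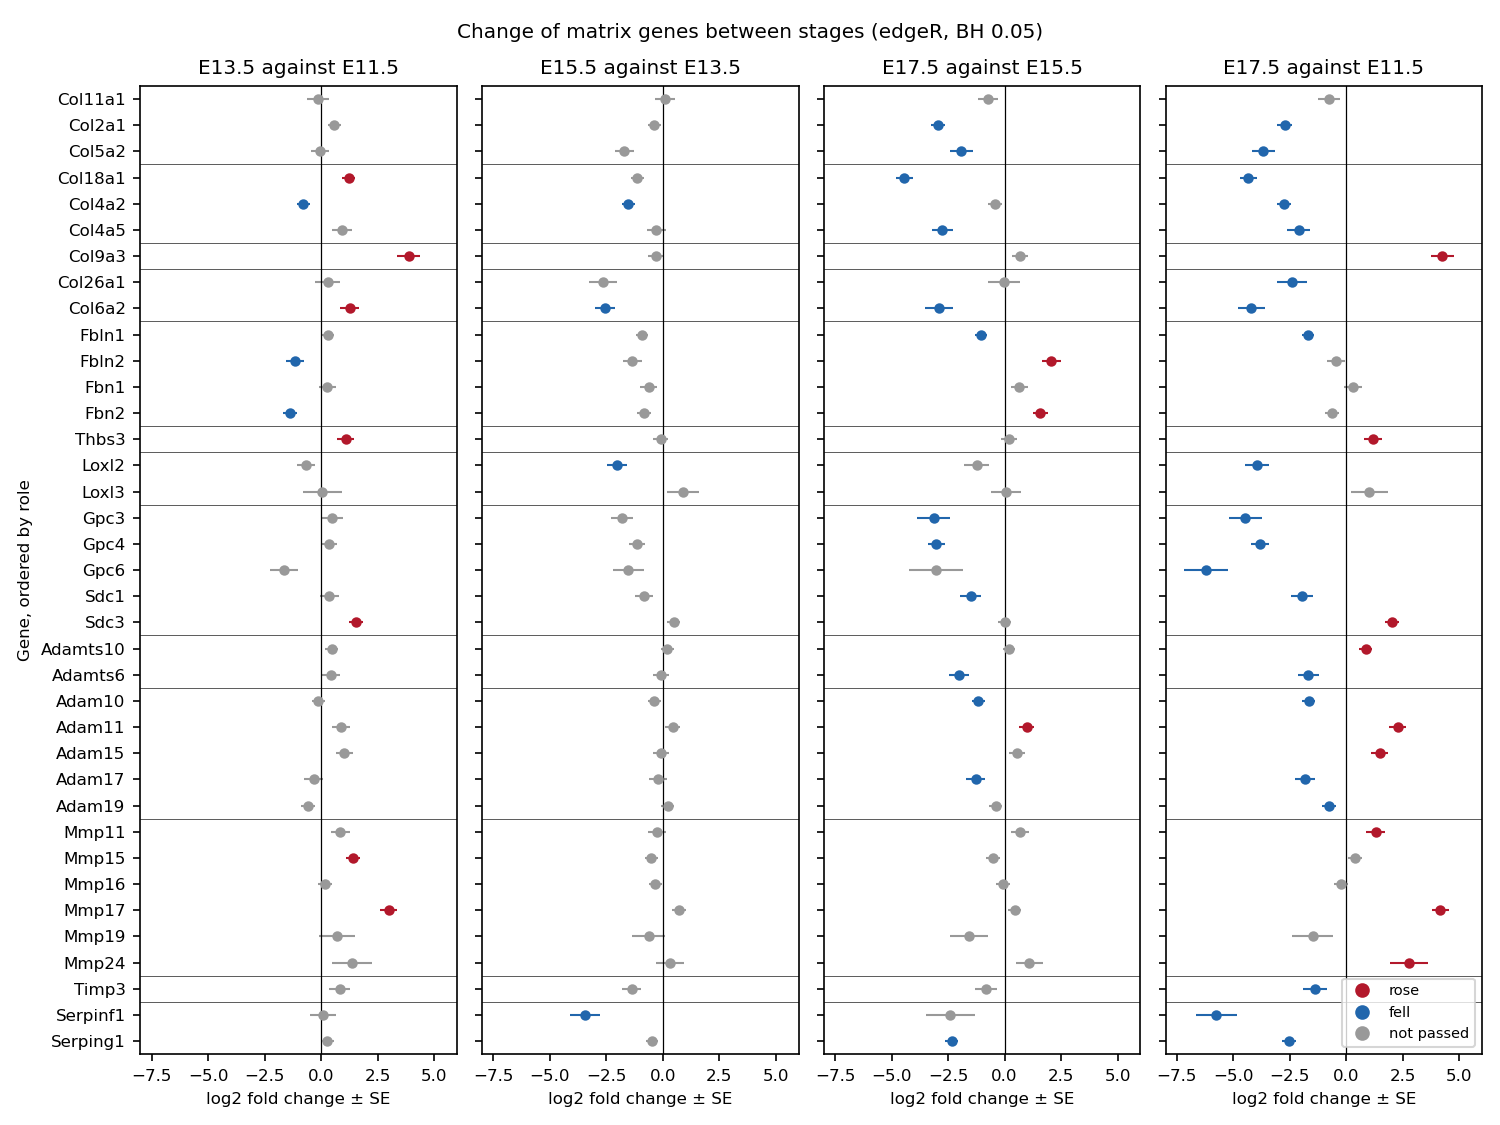
Log2 fold change (x axis, bars are standard errors) of each matrix gene (y axis, ordered by role) in the 3 steps between neighbouring stages and between the end stages, from edgeR with 3 libraries per stage. Red marks genes that rose and blue genes that fell at an adjusted p under 0.05: blue holds 4 genes in the E13.5 to E15.5 step, 13 in the E15.5 to E17.5 step and 20 between the end stages.

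Among the fibrillar collagens, which form the banded fibres of connective tissue, 2 of 3 fell between the end stages. Col2a1, the chain of the type II collagen of cartilage, measured 102, 66.7 and 61.1 CPM (E11.5), 108, 113 and 125 CPM (E13.5), 66.3, 93.8 and 108 CPM (E15.5), then 9.75, 8.17 and 16.5 CPM (E17.5). The 3 E17.5 libraries lay far below all 9 earlier ones. Its fall came in the last step, by 2.95 ± 0.33 (edgeR adjusted p = 1.9e-05), and between the end stages it fell by 2.73 ± 0.33 (edgeR adjusted p = 2.6e-06). Col5a2, a chain of the type V collagen that joins type I fibrils, measured 21.1, 19.8 and 30.2 CPM (E11.5), 16.96, 25.3 and 26.1 CPM (E13.5), 5.94, 10.5 and 4.67 CPM (E15.5), then 2.44, 2.63 and 0.507 CPM (E17.5). The E15.5 libraries lay below every earlier library and the E17.5 libraries below those. It fell by 1.91 ± 0.50 (edgeR adjusted p = 0.011) from E15.5 to E17.5 and dropped by 3.67 ± 0.50 (edgeR adjusted p = 9.1e-06) between the end stages. The last-step call was lost without E15.5 replicate 2 or E17.5 replicate 3, with adjusted p up to 0.052. Col11a1, a chain of the type XI collagen of cartilage, did not pass in any comparison, with values of 3.84, 9.88 and 8.64 CPM at E11.5 and 5.42, 4.67 and 2.79 CPM at E17.5 that overlap.

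The basement membrane collagens all fell between the end stages, 3 of 3. Col18a1 encodes a heparan sulfate-bearing collagen whose terminal fragment is endostatin. It has a peak in the 3′ untranslated region at chr10:77052745-77053179 of GRCm38 and 2 peaks that span exons and introns. Its levels were 68.2, 43.8 and 47.5 CPM (E11.5), 122, 131 and 119 CPM (E13.5), 56.8, 52.7 and 60.6 CPM (E15.5), then 3.52, 0.875 and 3.29 CPM (E17.5). The E13.5 libraries were the highest and the E17.5 libraries the lowest, with no overlap between either and any other stage. Col18a1 rose by 1.22 ± 0.30 (edgeR adjusted p = 0.0072) from E11.5 to E13.5, a call lost with the peaks of above-median score (0.0885), and fell by 4.43 ± 0.38 (edgeR adjusted p = 1.9e-06) from E15.5 to E17.5. Its change from E13.5 to E15.5 was -1.13 ± 0.30, edgeR adjusted p = 0.12, and it passed with DESeq2 and in a fit of only the 2 stages. Between the end stages it fell by 4.34 ± 0.38 (edgeR adjusted p = 9.3e-08), the smallest p among the members. The 3 peaks of Col18a1 moved alike, with changes of -4.13 ± 0.51, -4.36 ± 0.68 and -4.58 ± 0.55 between the end stages.

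Col4a2, which joins Col4a1 in the type IV network of basement membranes, fell earlier. It measured 109, 62.4 and 92.6 CPM (E11.5), 44.9, 67.1 and 41.1 CPM (E13.5), 15.6, 16.01 and 20.9 CPM (E15.5), then 11.6, 13.4 and 13.9 CPM (E17.5). The E13.5 values overlapped those of E11.5, and from E13.5 on each stage lay below the one before. Col4a2 fell by 1.54 ± 0.29 (edgeR adjusted p = 0.013) in the E15.5 step and dropped by 2.75 ± 0.31 (edgeR adjusted p = 1.1e-06) between the end stages, and its last step was -0.43 ± 0.30, edgeR adjusted p = 0.32. The call of E13.5 to E15.5 was lost without E13.5 replicate 2, E15.5 replicate 1 or E15.5 replicate 2 and with totals over every peak, with adjusted p up to 0.0975. From E11.5 to E13.5 it passed at -0.79 ± 0.28, edgeR adjusted p = 0.049, a call lost when any of 9 libraries was left out (E11.5 replicates 1 and 3, E13.5 replicates 1 and 3, all 3 E15.5 libraries and E17.5 replicates 2 and 3, adjusted p up to 0.197), with totals over exon and untranslated region peaks (0.258), with the peaks of above-median score (0.0603) and in a fit of only the 2 stages (0.0653). It turned to 0.38 with totals over every peak. Col4a5, another type IV chain, measured 15.4, 22.8 and 7.40 CPM (E11.5), 19.6, 40.6 and 26.1 CPM (E13.5), 23.4, 16.01 and 31.4 CPM (E15.5), then 3.52, 5.25 and 1.77 CPM (E17.5) and kept overlapping values through E15.5. It fell by 2.75 ± 0.48 (edgeR adjusted p = 7.1e-04) in the last step.

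The FACIT collagen Col9a3, a chain of the type IX collagen that coats type II fibrils, was the only collagen of the 9 that rose between the end stages, while 7 fell. It measured 1.44, 0.617 and 0.617 CPM (E11.5), 11.6, 13.6 and 16.95 CPM (E13.5), 8.31, 12.2 and 13.6 CPM (E15.5), then 20.04, 12.8 and 22.04 CPM (E17.5). The E11.5 libraries lay below all 9 later ones, and the later stages overlapped each other. Col9a3 rose by 3.87 ± 0.52 (edgeR adjusted p = 5.2e-05) from E11.5 to E13.5 and by 4.25 ± 0.52 (edgeR adjusted p = 3.0e-06) between the end stages. The E11.5 libraries held 3, 1 and 1 counts of Col9a3, so the size of the rise rests on few reads.

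Of the remaining collagens, Col6a2, a chain of the type VI beaded filaments, passed in every step. It measured 13.4, 11.7 and 11.7 CPM (E11.5), 31.7, 32.2 and 25.4 CPM (E13.5), 4.35, 7.56 and 3.18 CPM (E15.5), then 0.813, 1.17 and 0 CPM (E17.5). E13.5 was the highest stage and E17.5 the lowest, with no overlap between neighbouring stages. Col6a2 rose by 1.27 ± 0.42 (edgeR adjusted p = 0.035), then fell by 2.57 ± 0.43 (edgeR adjusted p = 0.0076) and dropped by 2.90 ± 0.60 (edgeR adjusted p = 0.0025). The rise was lost without any of E11.5 replicates 1, 2 and 3, E13.5 replicates 1 and 2 or E17.5 replicate 1 (adjusted p up to 0.0927), and the E13.5 to E15.5 call was lost without E15.5 replicate 1 (0.0553). Col26a1, a little studied collagen, measured 11.53, 9.88 and 4.94 CPM (E11.5), 15.8, 8.59 and 8.04 CPM (E13.5), 3.17, 1.56 and 0.374 CPM (E15.5), then 0.542, 2.92 and 1.52 CPM (E17.5) and fell by 2.41 ± 0.66 (edgeR adjusted p = 0.0050) between the end stages. That call was lost with totals over every peak, at -1.48 and an adjusted p of 0.055. When its peak called intronic was added, the sum for Col26a1 went the other way, at 0.92: that peak alone held 1, 0 and 4 counts at E11.5 and 29, 93 and 66 at E17.5.

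Fibrillins build the microfibrils that hold latent TGF-beta complexes, and fibulins link microfibrils and basement membranes. Fbn2 and Fbln2 had a pattern with its lowest point at E15.5. Fbn2 measured 132, 53.7 and 62.3 CPM (E11.5), 35.5, 31.99 and 27.6 CPM (E13.5), 14.6, 17.3 and 21.3 CPM (E15.5), then 51.7, 53.4 and 54.7 CPM (E17.5). Each E15.5 library lay below all others, and E11.5 replicate 1 stood well above the other E11.5 libraries. It fell by 1.39 ± 0.32 (edgeR adjusted p = 0.0041) to E13.5 and rose by 1.58 ± 0.32 (edgeR adjusted p = 0.0022) from E15.5 to E17.5, and between the end stages its change was -0.64 ± 0.31, edgeR adjusted p = 0.088, which passed with the peaks of above-median score. With totals over every peak, the first step of Fbn2 was -0.25 with an adjusted p of 0.538.

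Fbln2 measured 13.9, 20.99 and 9.87 CPM (E11.5), 6.47, 5.49 and 8.04 CPM (E13.5), 1.78, 2.001 and 3.93 CPM (E15.5), then 12.2, 11.4 and 9.12 CPM (E17.5). Again the E15.5 libraries were the lowest, and the E17.5 values overlapped those of E11.5. It rose by 2.06 ± 0.42 (edgeR adjusted p = 0.0024) in the last step, and between the end stages its change was -0.45 ± 0.39, edgeR adjusted p = 0.34. Its call from E11.5 to E13.5, at -1.15 ± 0.40, edgeR adjusted p = 0.044, was lost without any of E11.5 replicates 1 and 2, the 3 E13.5 libraries or E17.5 replicate 2 (up to 0.194) and with totals over exon and untranslated region peaks, and it was 0.05 with totals over every peak. Fbln1 did not share this course. It measured 57.6, 82.1 and 51.2 CPM (E11.5), 67.9, 81.9 and 85.6 CPM (E13.5), 32.9, 52.7 and 37.02 CPM (E15.5), then 19.5, 19.8 and 19.5 CPM (E17.5) and fell by 1.06 ± 0.28 (edgeR adjusted p = 0.011) in the last step and dropped by 1.70 ± 0.28 (edgeR adjusted p = 7.1e-05) between the end stages. The last-step call was lost without E15.5 replicate 2 (0.053). Fbn1 did not pass in any comparison, with a change of 0.31 ± 0.40 between the end stages.

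**Figure D3:**
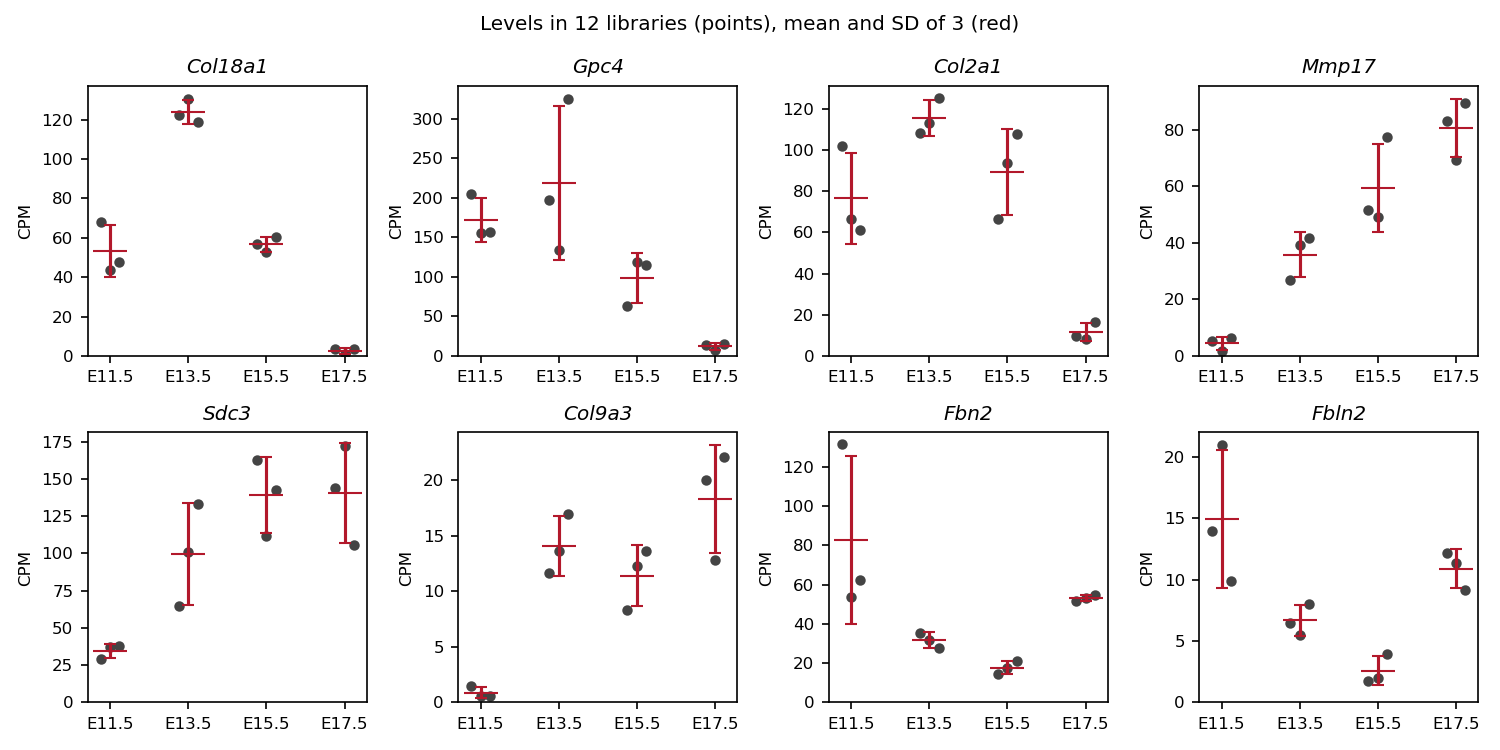
CPM (y axis) of 8 matrix genes at the 4 stages (x axis), with a point for each of 3 libraries and the mean ± SD in red. Col18a1, Gpc4 and Col2a1 are lowest at E17.5, Mmp17, Sdc3 and Col9a3 are lowest at E11.5, and Fbn2 and Fbln2 are lowest at E15.5.

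Thbs3, a calcium-binding glycoprotein and the only thrombospondin with a peak, measured 4.32, 10.5 and 6.17 CPM (E11.5), 13.6, 14.6 and 15.9 CPM (E13.5), 15.8, 10.2 and 14.96 CPM (E15.5), then 14.6, 13.1 and 18.997 CPM (E17.5). The E11.5 libraries lay below all E13.5 and E17.5 libraries. It rose by 1.17 ± 0.38 (edgeR adjusted p = 0.014) between the end stages, a call lost without E11.5 replicate 1 or E17.5 replicate 3 (up to 0.0775). Its E11.5 to E13.5 call, at 1.09 ± 0.38 (edgeR adjusted p = 0.045), was lost in 8 of the 12 fits that left out 1 library (E11.5 replicates 1 and 3, the 3 E13.5 libraries, E15.5 replicates 1 and 3 and E17.5 replicate 1, up to 0.183). It was also lost with relative log expression scaling, with intron rows included, with the peaks of above-median score and in a fit of only the 2 stages (0.0524 to 0.0899).

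The lysyl oxidases crosslink collagen and elastin. Loxl2 measured 16.3, 20.4 and 11.1 CPM (E11.5), 6.25, 12.2 and 11.52 CPM (E13.5), 2.57, 2.001 and 2.62 CPM (E15.5), then 0.542, 1.75 and 0.760 CPM (E17.5) and fell by 3.95 ± 0.52 (edgeR adjusted p = 6.6e-06) between the end stages. All 6 libraries of the later pair of stages lay below the 6 earlier ones. Its E13.5 to E15.5 call, at -2.04, was lost without any of E11.5 replicate 1, E13.5 replicates 2 and 3 or the 3 E15.5 libraries (up to 0.174), with totals over every peak and in a fit without the E11.5 libraries. Loxl3 did not pass in any comparison, and its E11.5 values were 0, 3.70 and 3.09 CPM.

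Glypicans are heparan sulfate proteoglycans held on the cell surface by a lipid anchor, where they bind Wnt, Hedgehog and FGF ligands, and all 3 in the table fell. Gpc4, with 1 peak over 5′ untranslated, coding and intron sequence at chrX:52164428-52165064, measured 205, 156 and 157 CPM (E11.5), 197, 134 and 326 CPM (E13.5), 62.7, 119 and 115 CPM (E15.5), then 14.1, 7.29 and 15.2 CPM (E17.5). The E17.5 libraries lay far below the other 9, and E13.5 replicate 3 stood above the rest. Gpc4 fell by 3.01 ± 0.38 (edgeR adjusted p = 6.4e-05) in the last step and dropped by 3.81 ± 0.39 (edgeR adjusted p = 5.0e-07) between the end stages. Gpc3 measured 6.72, 15.4 and 4.32 CPM (E11.5), 14.96, 10.98 and 10.9 CPM (E13.5), 2.57, 2.67 and 5.05 CPM (E15.5), then 0, 0.584 and 0.507 CPM (E17.5), with both later stages below both earlier ones apart from 1 overlapping E11.5 library. It fell by 3.14 ± 0.74 (edgeR adjusted p = 0.0061) in the last step. The only Gpc3 peak lies mostly outside exons in the GENCODE annotation, at 261 of 317 bases. Gpc6 measured 6.72, 12.96 and 8.02 CPM (E11.5), 2.46, 2.86 and 3.48 CPM (E13.5), 1.78, 0 and 1.12 CPM (E15.5), then 0.271, 0 and 0 CPM (E17.5), with E11.5 above every later library. It fell between the end stages (edgeR adjusted p = 4.6e-05), where only 1 count was left at E17.5 against 48 at E11.5. That is a ratio of 99.8 with a 95% counting interval of 17.1 to 4023. The only Gpc6 peak also lies mostly outside exons, at 263 of 317 bases.

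Syndecans carry heparan sulfate on a transmembrane core, and the 2 in the table went in opposite directions. Sdc3, the syndecan of neurons, measured 28.8, 37.04 and 37.6 CPM (E11.5), 64.96, 101 and 133 CPM (E13.5), 162, 112 and 143 CPM (E15.5), then 144, 172 and 106 CPM (E17.5). The E11.5 libraries lay below all later ones, and the later stages overlapped. It rose by 1.53 ± 0.31 (edgeR adjusted p = 0.0015) to E13.5 and by 2.03 ± 0.31 (edgeR adjusted p = 2.8e-05) between the end stages, while the steps after E13.5 were 0.48 ± 0.29 and 0.02 ± 0.29. Sdc1, the syndecan of epithelia, measured 6.24, 4.94 and 10.5 CPM (E11.5), 7.37, 9.79 and 10.7 CPM (E13.5), 5.34, 4.67 and 5.61 CPM (E15.5), then 2.44, 1.75 and 1.27 CPM (E17.5) and was lowest in the 3 E17.5 libraries. Sdc1 fell by 1.97 ± 0.48 (edgeR adjusted p = 0.0019) between the end stages, a call lost with totals over every peak (-0.997, adjusted p 0.089). Its last-step call, at -1.51 ± 0.45, edgeR adjusted p = 0.024, was lost without E15.5 replicate 1 or 3 or E17.5 replicate 2 or 3 (up to 0.0942).

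The single peaks of both syndecans lie wholly within coding sequence, Sdc3 at chr4:130818731-130819067 and Sdc1 at chr12:8790446-8790590, both on the plus strand of GRCm38. They are shown because STAU2 binds paired RNA and these peaks carry the opposite changes. Capitals mark the longest uninterrupted run of base pairs in the structure of least free energy that RNAfold predicted for each peak, read from the GENCODE transcript 5′ to 3′. In Sdc3 it is a hairpin of 9 pairs around a loop of 5 bases. In Sdc1 it is a helix of 6 pairs with 46 bases between the paired bases of its arms. The printed stretches include flanking bases in lower case. They span chr4:130818738-130818764 for Sdc3, and chr12:8790523-8790538 and chr12:8790575-8790590 for the Sdc1 arms. These are predictions, and no structure was measured. Whether pairing goes with the direction of change was not tested.
Sdc3 hairpin: caGTCACCAGTcccccGCTGGTGACag
Sdc1 5′ arm: agaagCCCGAGgaggg
Sdc1 3′ arm: cactgCTCGGGacaag

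ADAM proteins are transmembrane proteases that shed the outer parts of other membrane proteins. Of 5, 3 fell and 2 rose between the end stages. Adam10, which cuts Notch receptors and N-cadherin, measured 70.6, 100.02 and 61.1 CPM (E11.5), 63.6, 82.8 and 65.4 CPM (E13.5), 37.4, 69.8 and 56.5 CPM (E15.5), then 19.8, 26.8 and 26.1 CPM (E17.5). The E17.5 libraries lay below all others. It fell by 1.67 ± 0.30 (edgeR adjusted p = 1.5e-04), a call lost with totals over every peak (-0.69, adjusted p 0.052), and its last-step call, at -1.17 ± 0.29, edgeR adjusted p = 0.0092, was lost without E17.5 replicate 1 (0.052). Adam17, the sheddase of TNF and EGF receptor ligands, measured 20.2, 16.7 and 37.02 CPM (E11.5), 25.2, 12.4 and 20.9 CPM (E13.5), 20.2, 19.6 and 10.8 CPM (E15.5), then 4.33, 11.4 and 5.07 CPM (E17.5). It fell by 1.83 ± 0.45 (edgeR adjusted p = 0.0023) between the end stages, again not with totals over every peak (-0.87, adjusted p 0.087) or with the peaks of above-median score. Its last-step call, at -1.29 with overlapping libraries, was lost in 7 fits that left out 1 library (E11.5 replicate 1, E13.5 replicates 1 and 3, E15.5 replicates 1 and 2, E17.5 replicates 1 and 3, up to 0.18) and with 4 other settings.

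Adam11, a brain ADAM without protease activity, measured 7.68, 3.09 and 4.32 CPM (E11.5), 9.15, 7.88 and 11.1 CPM (E13.5), 11.3, 12.45 and 14.4 CPM (E15.5), then 23.8, 20.1 and 30.9 CPM (E17.5). Every E17.5 library lay above all earlier ones. It rose by 2.27 ± 0.39 (edgeR adjusted p = 8.8e-05) between the end stages, and its last-step call, at 0.97, was lost without any of E13.5 replicate 1, the 3 E15.5 libraries or E17.5 replicates 1 and 3 (up to 0.165) and with either scaling by totals. Adam15, expressed on endothelium and other cells, measured 12.01, 11.1 and 9.26 CPM (E11.5), 30.4, 23.4 and 12.6 CPM (E13.5), 19.2, 17.6 and 25.8 CPM (E15.5), then 37.4, 20.1 and 33.2 CPM (E17.5) and rose by 1.48 ± 0.38 (edgeR adjusted p = 0.0029). The smallest of these changes, in Adam19, was -0.77 ± 0.30, edgeR adjusted p = 0.035. It was lost without E11.5 replicate 2, E17.5 replicate 2 or E17.5 replicate 3 (up to 0.13), with totals over exon and untranslated region peaks (0.19), with the peaks of above-median score (0.385) and in a fit of only the 2 stages (0.0682). It became 0.21 with totals over every peak.

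The 2 secreted ADAMTS proteases, both linked to fibrillin microfibrils, went in opposite directions. Adamts10 measured 29.3, 20.99 and 20.4 CPM (E11.5), 31.03, 40.6 and 26.5 CPM (E13.5), 33.2, 33.8 and 45.8 CPM (E15.5), then 44.1, 42.6 and 41.03 CPM (E17.5) and rose by 0.85 ± 0.28 (edgeR adjusted p = 0.016), a call lost without E11.5 replicate 2 or 3 (up to 0.0569) and with the peaks of above-median score. Adamts6 measured 6.24, 8.03 and 4.32 CPM (E11.5), 7.59, 6.45 and 10.9 CPM (E13.5), 8.71, 7.56 and 7.29 CPM (E15.5), then 1.90, 2.33 and 1.52 CPM (E17.5), with values alike through E15.5 and lower in the 3 E17.5 libraries. It fell by 2.02 ± 0.43 (edgeR adjusted p = 0.0029) in the last step and dropped by 1.68 ± 0.46 (edgeR adjusted p = 0.0050) between the end stages, a call lost with totals over every peak (-0.73, adjusted p 0.204).

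Of the 6 matrix metalloproteinases 3 rose between the end stages and 0 fell. Mmp17 encodes a membrane metalloproteinase held by a lipid anchor. Its main peak, in the 3′ untranslated region, lies at chr5:129607666-129608082 of GRCm38. It measured 5.28, 1.85 and 6.17 CPM (E11.5), 26.8, 39.1 and 41.7 CPM (E13.5), 51.6, 49.1 and 77.4 CPM (E15.5), then 83.2, 69.4 and 89.7 CPM (E17.5). Each stage through E15.5 lay above the one before, and E17.5 overlapped E15.5. Mmp17 rose by 2.99 ± 0.38 (edgeR adjusted p = 3.3e-05) to E13.5 and by 4.16 ± 0.39 (edgeR adjusted p = 1.7e-07) between the end stages, the smallest p among the genes that rose, with steps of 0.73 ± 0.30 and 0.44 ± 0.30 in between. Its 3 peaks changed by 4.11 ± 0.45, 3.72 ± 0.75 and 4.93 ± 0.72.

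Mmp24, a membrane-type enzyme of the nervous system, measured 0, 2.47 and 0 CPM (E11.5), 1.79, 1.43 and 2.83 CPM (E13.5), 2.77, 3.11 and 1.68 CPM (E15.5), then 6.77, 4.09 and 5.32 CPM (E17.5) and rose by 2.77 ± 0.83 (edgeR adjusted p = 0.0086), from E11.5 values of which 2 were 0. Mmp11, a secreted stromelysin, measured 12.97, 13.6 and 17.9 CPM (E11.5), 23.4, 20.3 and 36.5 CPM (E13.5), 35.6, 13.1 and 18.5 CPM (E15.5), then 53.4, 32.4 and 23.05 CPM (E17.5) and rose by 1.29 ± 0.42 (edgeR adjusted p = 0.013). This call was lost without E17.5 replicate 1 (0.0944), the highest of its libraries. Mmp15, another membrane-type enzyme, measured 24.01, 27.2 and 21.6 CPM (E11.5), 66.7, 47.7 and 77.6 CPM (E13.5), 47.3, 46.9 and 39.8 CPM (E15.5), then 31.96, 19.6 and 42.05 CPM (E17.5). It rose by 1.40 ± 0.31 (edgeR adjusted p = 0.0031) to E13.5, its highest stage, and its change between the end stages was 0.36 ± 0.31, edgeR adjusted p = 0.32. Mmp16 did not pass in any comparison and stayed between 12.55 and 26.5 CPM in the 12 libraries. Mmp19 did not pass either, and its values were 2.40, 14.2 and 1.85 CPM (E11.5), 3.57, 22.4 and 3.26 CPM (E13.5), 5.34, 8.23 and 5.42 CPM (E15.5), then 1.90, 4.09 and 0.507 CPM (E17.5). Replicate 2 was the highest Mmp19 library at all 4 stages, and the spread within E11.5 and E13.5 was wider than any difference between stage means. In an alternative fit with the replicate number as a block, Mmp19 passed in the last step, though the numbers were not taken as pairs.

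Timp3, the TIMP that binds to matrix, measured 5.76, 3.70 and 5.55 CPM (E11.5), 10.04, 9.31 and 7.39 CPM (E13.5), 5.34, 2.22 and 2.62 CPM (E15.5), then 1.90, 2.63 and 1.27 CPM (E17.5), with E13.5 highest. It fell by 1.38 ± 0.53 (edgeR adjusted p = 0.032) between the end stages. The call was lost without E11.5 replicate 1 or 3 or E17.5 replicate 1 or 3 (up to 0.105) and with either scaling by totals, reaching -0.44 with an adjusted p of 0.493 for totals over every peak. Both serpins fell. Serping1, the inhibitor of the first complement component, measured 73.004, 70.4 and 105 CPM (E11.5), 86.8, 101 and 111 CPM (E13.5), 86.7, 54.7 and 73.1 CPM (E15.5), then 9.75, 18.97 and 13.4 CPM (E17.5) and fell by 2.35 ± 0.31 (edgeR adjusted p = 7.8e-05) in the last step, with the E17.5 libraries far below the other 9. Serpinf1, pigment epithelium-derived factor, measured 13.9, 28.4 and 6.79 CPM (E11.5), 24.6, 12.4 and 14.997 CPM (E13.5), 2.77, 1.78 and 0.187 CPM (E15.5), then 0, 0 and 0.760 CPM (E17.5). It fell between the end stages (edgeR adjusted p = 4.4e-05), from 86 counts at E11.5 to 3 at E17.5, a ratio of 59.6 with a 95% counting interval of 19.7 to 295. Its fall from E13.5 to E15.5, at -3.45 ± 0.67, edgeR adjusted p = 0.018, was lost without E13.5 replicate 1 or any E15.5 library (up to 0.089). The only Serpinf1 peak, called 3′ untranslated, lies mostly outside exons in the GENCODE annotation, at 254 of 402 bases.

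Markers of other cell types in the dissected tissue differed between the stages too. The summed level of 8 meningeal and mesenchymal markers found in the table, of 15 listed, ranged over 488 to 505 CPM at E11.5 and 531 to 577 CPM at E13.5. It then ranged over 76.1 to 84.9 CPM at E15.5 and 13.7 to 15.7 CPM at E17.5. All 8 fell between the end stages. The 3 endothelial markers in the table, of 12 listed, summed to 30.2 to 50.9 CPM at E11.5 and 9.05 to 15.45 at E17.5, and 2 of the 3 fell. The 2 pericyte markers of 8 summed to 37.6 to 58.7 and then 11.4 to 22.2 CPM, and both fell. The 2 erythroid markers of 10 summed to 46.9 to 53.8 CPM at E11.5 and 0 to 0.292 CPM at E17.5, and both fell. The 2 choroid plexus markers of 6 summed to 17.9 to 30.9 CPM at E11.5 and 714 to 956 CPM at E13.5, then to 97.6 to 193 CPM at E15.5 and 2.04 to 4.88 CPM at E17.5. The high E13.5 sum is that of Ttr alone, which rose from 10.1 ± 2.24 to 871 ± 139 CPM (SD, n = 3) while Otx2 fell from 15.4 ± 5.56 to 2.98 ± 1.31 CPM. Of 4 microglial markers, of 10 listed, 1 rose and 1 fell between the end stages. The 7 radial glial markers of 11 summed to 539 to 709 CPM at E11.5 and 1218 to 1819 CPM at E17.5, with 2 rising and 4 falling. The higher E17.5 sum comes from Fabp7, which went from 179 ± 22.1 to 1419 ± 338 CPM (SD, n = 3). Of the others, only Notch2 had a higher mean at E17.5, at 9.79 and then 19.6 CPM. Prom1 went from 137 ± 28.4 to 16.1 ± 10.1 CPM. The sum of the 9 neuronal markers of 11 went from 517 to 549 CPM at E11.5 to 7476 to 8142 at E17.5. Of these, 8 rose and Map2 did not pass, at 34.0 ± 8.496 and 26.8 ± 5.98 CPM. The markers at 0 in all libraries of a stage were Otx2, in the choroid plexus list, and Pf4, in the microglial list, both at E17.5. All 9 markers of cortex were in the table, and their sum ranged over 3424 to 6074 CPM in the 12 libraries. Single markers moved in opposite directions within this sum, and 3 rose and 3 fell between the end stages. Neurod6 went from 30.8 ± 10.4 to 1255 ± 241 CPM and Emx2 from 790 ± 272 to 44.4 ± 11.3 CPM (SD, n = 3). The part of these shifts in the changes of the matrix genes was not tested.

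**Figure D4:**
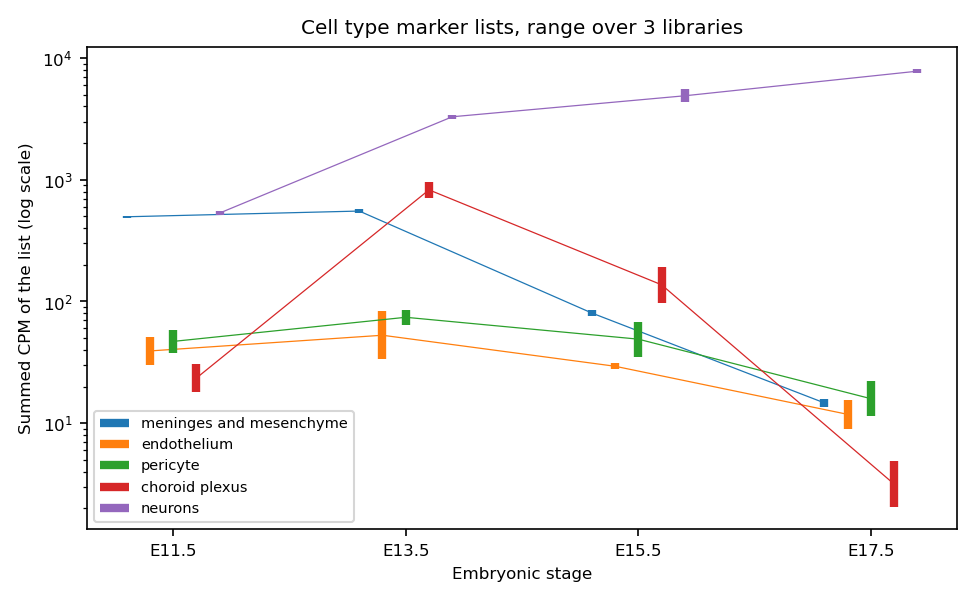
Summed CPM (y axis, log scale) of the marker genes of 5 cell types at the 4 stages (x axis). Each thick bar spans the lowest to the highest of 3 libraries and thin lines join the midpoints: the sum of the meningeal list falls from at least 488 CPM at E11.5 to at most 15.7 CPM at E17.5, while the sum of the neuronal list goes from 517 to 549 up to 7476 to 8142 CPM.

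The 4 collagens left out of the choice, the type I and III chains of connective tissue and a type IV chain, fell as well. Their changes between the end stages were -5.31 ± 0.30 for Col1a1, -6.99 ± 0.41 for Col1a2, -7.52 ± 0.58 for Col3a1 and -2.69 ± 0.30 for Col4a1. Of these, 3 are also in the meningeal marker list. In the step to E15.5 they changed by -2.69 ± 0.24, -3.24 ± 0.30, -3.50 ± 0.41 and -1.69 ± 0.29. In that step Col4a2, the partner chain of Col4a1, changed by -1.54 ± 0.29.

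Other matrix genes, from lists outside the symbol rule, gave a mixed picture. Of 26 matrix glycoproteins and proteoglycans 16 rose and 2 fell from E11.5 to E13.5, against 14% and 11.3% of all genes, and 1 rose and 13 fell from E15.5 to E17.5, against 9.74% and 12.2%. Between the end stages 9 rose and 10 fell, where 29.8% and 28.8% of all genes did. Those that rose between the end stages included Ncan and Cspg5, chondroitin sulfate proteoglycans of the neural matrix, at 3.51 ± 0.40 and 3.56 ± 0.44, and Reln, the glycoprotein that guides cortical layering, at 4.35 ± 0.46. Those that fell included Lum and Bgn, small leucine-rich proteoglycans of connective tissue, at -7.32 ± 0.46 and -4.63 ± 0.42, and Lum is also in the meningeal marker list. Eln, the elastin of connective tissue, went the other way from Lum and Bgn between the end stages. Its means were 2.72 ± 1.02 CPM at E11.5 and 54.9 ± 13.2 CPM at E13.5 (SD, n = 3). They were 70.7 ± 19.6 CPM at E15.5 and 32.3 ± 5.60 CPM at E17.5. Whether the list splits by tissue was not tested. Of 7 matrix receptors 0 rose and 6 fell between the end stages, among them the integrin chain Itga6 at -4.02 ± 0.55. Of 16 genes of collagen processing and matrix assembly 5 rose and 6 fell, and of 6 other extracellular proteases and inhibitors 1 rose and 2 fell. Several of these shares, such as 9 of 26 and 5 of 16 that rose and 2 of 6 that fell, lie near those of all genes and are no result about the lists.

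The peaks of 1 gene can be used unequally over time. Among the 15 members with 2 or more peaks, 0 changed in peak use between E11.5 and E17.5 by the gene-level test of edgeR's diffSpliceDGE, against 2.72% of the 3310 genes tested. An unadjusted p under 0.05 was reached by 4 of them, Fbn2, Col2a1, Adam11 and Fbln1, and the lowest adjusted p was 0.141. The share of all genes at that unadjusted p was not computed. The Simes test of the same fit also called 0 members. In Col2a1 the coding peak changed by -1.43 ± 0.49 and the 3′ untranslated peak by -3.07 ± 0.39. In Fbn2 the 2 peaks, both in the 3′ untranslated region, changed by -0.98 ± 0.37 and 0.45 ± 0.40.

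The 3 members with the smallest p over the 4 stages were set beside every other gene by Pearson's r of log2 CPM over the 12 libraries, as a description. These libraries share stage, depth and scaling, which enter every such r. The genes most like Col18a1 were Sall1 (0.984), Col2a1 (0.980) and Cdh5 (0.977). Those most like Mmp17 were Ralyl (0.982), Rab3a (0.981) and Unc5a (0.979). Those most like Gpc4 were Casd1 (0.982), Tacc1 (0.980) and Dnajc10 (0.969).

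The member peaks lay in the 3′ untranslated region more often by the table's own calls, at 39 of 62 or 62.9% against 48.7% of all rows, and less often in exons, at 30.6% against 43.0%. No test of these shares was run. Their median width was 405 bases against 345, and their median peak score, as the authors deposited it, was 19.3 against 30.2. In the GENCODE annotation 16 of the 62 rows (25.8%) lay mostly outside exons, against 30.6% of all rows. For the 30 member peaks that lie within 1 exon, median GC content was 49.7% against 47.2% for all 5386 such peaks, and the median predicted free energy was -29.0 against -25.5 kcal/mol per 100 bases. The longest predicted helix had a median of 9 base pairs in both sets, with 4 to 14 among the members. Among members, the 8 such peaks of genes that rose between the end stages had a median GC content of 55.6%, and the 14 of genes that fell 47.3%, with ranges that overlap.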

How the data were processed

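The whole-number counts per peak were deposited by the authors as 12 columns, 3 per stage, and the 24 labelled samples hold RIPs and inputs. Ribosomal RNA was removed (Ribo-Zero) before ScriptSeq library preparation, per the labels' protocols. HOMER 4.10 and the builds mm10 and GRCm38 are named in the submitters' processing notes. The aligner, counting settings and prior scaling were not given in the sources used here. A peak score was deposited by the authors, and here only the peaks above its median served as a stricter alternative.

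Of 18975 rows, 4683 called Intergenic or without a gene and 543 called Intron were left out, and counts were summed per gene. Intergenic rows held even numbers, and 606 of them repeat another row at exactly double its counts, so they were halved or dropped in totals over every peak. Genes were filtered with filterByExpr and tested with edgeR 4.0.16 (R 4.3.3), with TMM scaling, the quasi-likelihood F test over all 4 stages in 1 fit and Benjamini-Hochberg adjustment at 0.05. Standard errors are the log2 fold change divided by the root of F. The common biological coefficient of variation was 0.295. Peak use was tested with diffSpliceDGE. DESeq2 1.42.0, other scalings, no filter, added intron rows, a fit of only the stages compared, a replicate block and fits without each library were alternatives. Peaks were placed in GENCODE vM21 and folded with RNAfold (ViennaRNA 2.7.2).

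Named were up to 30 members past the threshold per comparison by smallest p, the top 3 of each role by mean CPM and up to 8 other matrix genes per comparison. The remaining members are named so that every gene is accounted for. The members, lists and tests were chosen with earlier results of these data known. On simulated counts for 7651 genes, the E17.5 against E11.5 test recovered 18% of genes changed 2-fold, 74% of those changed 3-fold and 96% of those changed 5-fold. The simulation changed 50 genes at each fold, kept all others flat and gave every gene the same spread. In the data 29.8% of genes rose and 28.8% fell in this comparison, so these rates need not hold there.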

Additional observations from a re-analysis of the deposited data

How the results depend on the processing

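Of the gene-level values recomputed under alternatives, 2934 kept their side of the threshold, 52 newly passed, 108 no longer passed and 7 reversed. A reversal was counted only where the main or the alternative fit passed. The 2934 therefore include changes of sign in values that passed in neither fit. Totals over every peak gave 28 changed members from E11.5 to E13.5 and 2 from E13.5 to E15.5, and reversed Adam10 (1.08), Col11a1 (1.09), Col4a2 (0.38), Col5a2 (1.16) and Fbln2 (0.053) in the first of these steps and Adam19 (0.21) between the end stages. Added intron rows reversed Col26a1 between the end stages (0.92). Peaks of above-median score, which leave 19 members to test, gave 4, 1 and 8 changed members in the 3 steps, 13 between the end stages and 12 over the 4 stages, and no member with 2 peaks for peak use. From E13.5 to E15.5 DESeq2 gave 9, a fit of only the 2 stages 8 and a fit without the E11.5 libraries, added after the data were seen, 3 where the main count was 4. The cause of these differences was not tested. The shares of all genes called under the alternatives were not computed, so the counts in this section show only how the member calls vary. Leaving out 1 library gave 6 to 10, 0 to 6 and 12 to 16 changed members in the 3 steps, 26 to 29 between the end stages, 25 to 29 over the 4 stages and 0 for peak use. The lowest of the E13.5 to E15.5 counts came from leaving out a library of E15.5 (0 for replicate 1, 1 for replicate 2, 2 for replicate 3) or replicate 2 of E13.5 (2). With the replicate number as a block, the counts were 9, 5 and 16 in the 3 steps, 29 between the end stages, 29 over the 4 stages and 0 for peak use. The block lost Col4a2 from E11.5 to E13.5 (0.0599) and Adam17 in the last step (0.0515), and gained Col26a1 from E13.5 to E15.5 and Mmp19 in the last step. Deviations of libraries with the same number correlated at -0.18 to 0.51 over 18 pairs (mean 0.116, against -0.0576 for different numbers). Pairs of replicate 2 ran from 0.122 to 0.511. Those of replicate 1 ran from -0.184 to 0.116 and those of replicate 3 from -0.168 to 0.179. Not every pair was above 0.1, so the numbers were not taken as pairs, and 6 of 12 libraries correlated best with their own number. E11.5 has the fewest counts in exon and untranslated region peaks, so its low values are the least precise.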
